A study of Mus musculus with 12 samples.

Results

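The effect of a high-fat diet (HFD) on gene expression in wild-type mouse liver was measured by RNA sequencing of 3 liver libraries on HFD and 3 on a normal diet, which are 6 of the 12 libraries of the series. They were chosen by their labels alone: every library of genotype p53 wt and treatment HFD (wt_HFD here) against every library of genotype p53 wt and treatment normal (wt_normal). All 12 libraries were made from total RNA of livers of C57BL/6 mice aged 12 weeks. The other 6, from p53 ko livers on normal diet (ko_normal, 3 libraries) and on HFD (ko_HFD, 3 libraries), helped to estimate the spread between replicates and served for 1 comparison. Neither the make-up and length of the diet nor the feeding state, the hour of sampling and the way p53 was deleted is stated by the labels. The labels leave it unsaid whether each replicate is a different animal. The p-values are therefore set against a spread between libraries that could be partly technical. All genes were in scope: the counts list 52636 gene identifiers, of which 14433 passed a filter on low counts and were tested.

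The liver makes cholesterol through a chain of enzymes whose genes are switched on together by the SREBP transcription factors, which are released from the endoplasmic reticulum when its membranes are poor in sterols. Hepatocytes also clear drugs, steroids and bile acids with cytochrome P450 and conjugating enzymes, many of them under the nuclear receptors PXR and CAR. Along the blood flow through a liver lobule, hepatocytes near the portal vein carry most of the amino acid breakdown and urea synthesis, and the liver secretes most plasma proteins, including protease inhibitors and the acute phase proteins of inflammation.

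Total counts were 15465187 to 18584789 per library in wt_normal and 16751342 to 17980836 in wt_HFD. Trp53, the gene encoding p53, was at 16.3, 14.5 and 15.6 CPM (normalised read count, scaled to library totals) in wt_normal and at 8.54, 10.7 and 24.5 CPM in wt_HFD, while the ko libraries lay between 0.273 and 1.62 CPM. Hepatocyte markers were abundant in every wild-type library, with a summed level of 40001 to 54735 CPM in wt_normal and 44559 to 57960 CPM in wt_HFD over 10 markers. Library wt_normal replicate 2 stood apart. The 19 skeletal muscle markers held 1.54% of its counts, against at most 0.00345% in any of the other 11 libraries, and summed to 13411 CPM against 9.64 to 34.4 CPM. Tnnc2 was the only muscle marker with no count in any wild-type library. B and plasma cell markers in the same library summed to 256 CPM against 14.1 to 36.7 CPM elsewhere. Markers of stellate cells and fibroblasts (863 CPM against 206 and 276 CPM in the other wt_normal libraries), of adipocytes (178 against 33.3 and 34 CPM) and of erythroid cells (878 against 417 and 411 CPM) were also highest there. No member of the 13 marker lists was called between the diets by edgeR's test. This held even for the skeletal muscle markers, with a median log2 change of -7.95, so it does not show equal cell make-up.

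**Figure D1:**
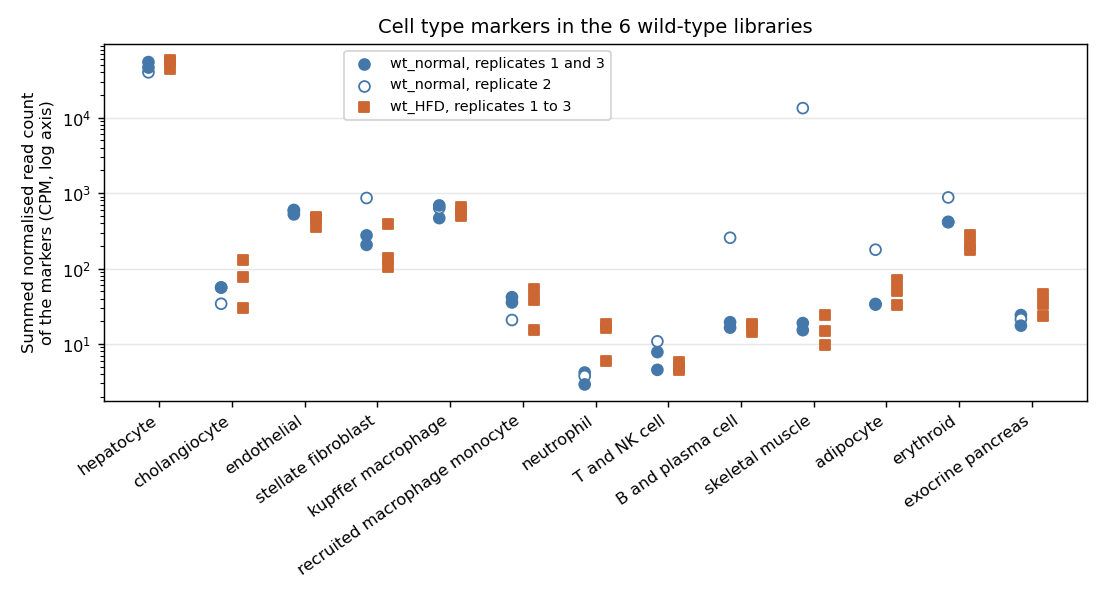
Summed normalised read count (CPM, log axis) of 13 lists of cell type markers in each of the 6 wild-type libraries. Each point is 1 library, circles are wt_normal with replicate 2 open, and squares are wt_HFD. The open circle stands at 13411 CPM for skeletal muscle and 256 CPM for B and plasma cells, above all other wild-type libraries.

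On HFD, the genes that rose included enzymes of cholesterol synthesis, stress signalling genes and a set of secreted proteins, and those that fell included enzymes of drug clearance, amino acid breakdown and the urea cycle. In edgeR's quasi-likelihood test, with Benjamini-Hochberg adjustment over all 14433 genes, 100 genes were called at an adjusted p under 0.05, or 0.693% of those tested. Of these, 62 were higher (0.43% of genes tested) and 38 lower (0.263%) in wt_HFD. The median size of the rises was 1.49 and that of the falls -1.58 on the log2 scale, and 16 rises and 14 falls were at least 4-fold. The libraries of the diets did not overlap for any of the 100 genes, which was also true of 21.9% of all genes tested. Protein-coding genes made up 88 of the 100. Most calls, 68 of the 100, were genes on none of the pathway lists described below, so those lists cover only a minor part of the calls.

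Leaving out wt_normal replicate 2 kept the sign of all 100 changes, an outcome nearly fixed in advance since their groups did not overlap. The count of calls was then 23 of 14749 genes tested (0.156%), 14 higher and 9 lower, of which 21 were among the 100. Gadd45a alone moved by over 1.5 times in fold, from a log2 change of 3.80 to 4.56. The loss of calls was not particular to that library, though not every library left out had this effect. The count was 9 without wt_normal replicate 3, 22 and 19 without wt_HFD replicate 1 or 2, 58 and 24 without ko_normal replicate 2 or 3, and 57 without ko_HFD replicate 2. It was 128 without wt_normal replicate 1, 103 without wt_HFD replicate 3 and 118 without ko_normal replicate 1. Without ko_HFD replicate 1 or 3 it was 131 and 97. Of the 100 genes, 8 kept their call in each of the 12 fits that left out 1 library: Serpina12, Cyp3a11, Slc23a1, Msmo1, Gsta2, Cyp3a59, Foxq1 and the predicted gene Gm44117. Another 13 were called both with and without wt_normal replicate 2: Etnppl, Slco1a4, Gm30784, 9030616G12Rik, Ddah1, Cdk5rap3, Cyp51, Mvd, Creld2, Aacs, Nat8f5, Fabp5 and Gadd45a. The 2 genes called only without that library were Mvk (log2 change 1.44, adjusted p = 0.0499 by edgeR, against 1.12 and 0.0626 with it) and the clock repressor Bhlhe41 (3.29 and 0.0499, against 2.16 and 0.101).

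**Figure D2:**
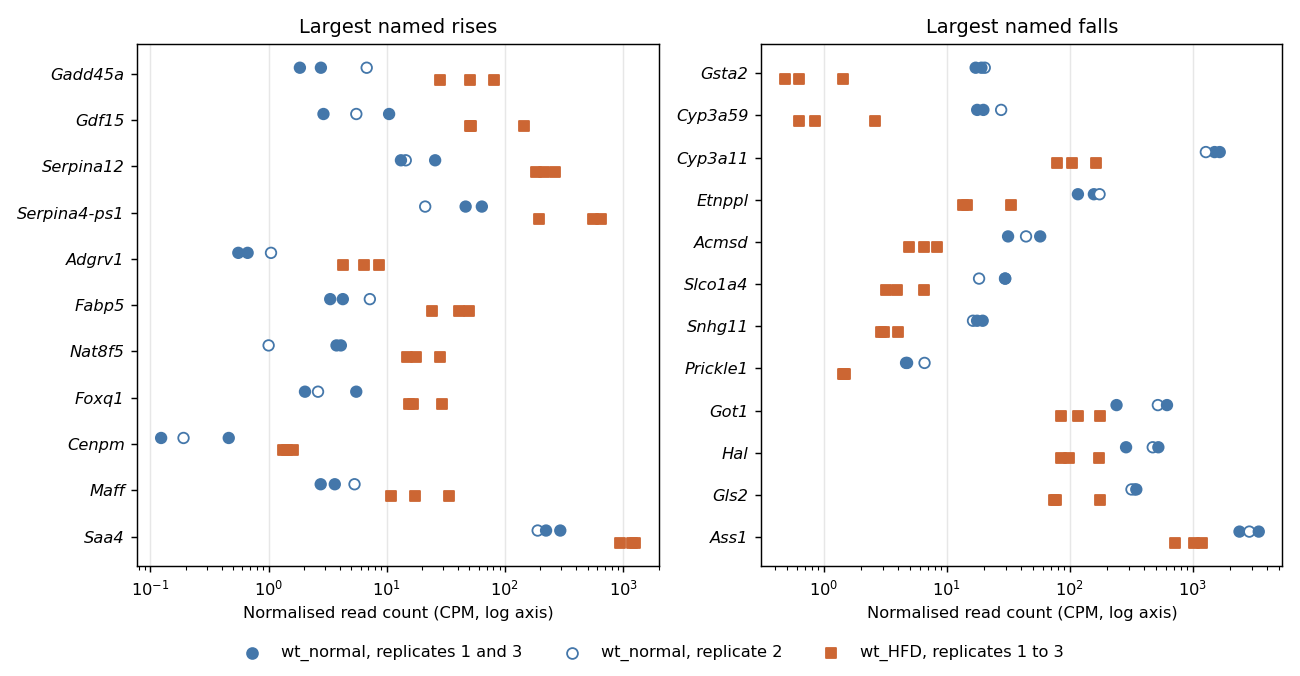
Normalised read count (CPM, log axis) of 11 of the 12 largest named rises and of the 12 largest named falls, each point 1 wild-type library, circles wt_normal with replicate 2 open and squares wt_HFD. In all 23 rows the circles and squares do not overlap, which was a condition for entering the figure. The open circle lies near the other 2 circles in some rows, as for Cyp3a11 at 1274 CPM beside 1499 and 1651 CPM. In others it stands apart, as for Nat8f5 (1.0 CPM beside 3.75 and 4.09 CPM) and Gadd45a (6.76 CPM beside 2.77 and 1.84 CPM).

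Genes of cholesterol synthesis had mostly positive changes. Of the 20 tested, 17 had a log2 change above 0, against 47.2% of all genes, and the median was 0.60 against -0.03 for all genes. Called were 3, all higher, and the median without wt_normal replicate 2 was 0.62, with 4 called. It was 0.33 without wt_HFD replicate 3. Msmo1, which oxidises a methyl group of lanosterol-derived sterols, was at 9.60, 12.0 and 14.6 CPM in wt_normal and at 43.7, 37.8 and 49.7 CPM in wt_HFD. Every HFD library thus lay well above every normal-diet library, a 3.61-fold rise (log2 change 1.85, SE 0.19, adjusted p = 0.0014 by edgeR, and 0.0125 without wt_normal replicate 2). Cyp51, the lanosterol demethylase, was at 21.3, 23.7 and 19.2 CPM against 55.0, 51.2 and 57.0 CPM, a 2.54-fold rise with little spread in either group (log2 change 1.35, SE 0.20, adjusted p = 0.0196 by edgeR). Mvd, which makes isopentenyl diphosphate by decarboxylating mevalonate diphosphate, was at 4.86, 7.00 and 4.19 CPM against 12.1, 12.7 and 17.3 CPM (log2 change 1.39, SE 0.24, adjusted p = 0.0271 by edgeR).

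The other members of the pathway were less even. Sqle, the squalene epoxidase named in the title of the series, was at 4.31, 5.24 and 4.55 CPM against 11.5, 10.9 and 14.3 CPM, without overlap, yet did not pass (log2 change 1.38, SE 0.30, adjusted p = 0.0569 by edgeR). The following were chosen after their values were seen. Idi1, an isomerase early in the pathway, was low everywhere, at 0.308, 0.667 and 0.46 CPM against 1.5, 1.16 and 3.0 CPM (log2 change 1.96, adjusted p = 0.129 by edgeR). Members with a negative value included Tm7sf2 (-0.65) and Hsd17b7 (-0.42), which act after lanosterol and were not called.

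Among genes that sense, take up or store sterols, 3 called rises are described here. Stard4, a carrier of cholesterol between membranes, was at 12.4, 12.2 and 8.53 CPM against 24.6, 30.3 and 24.1 CPM (adjusted p = 0.0343 by edgeR). Insig1, which holds SREBP in the endoplasmic reticulum, rose least, 1.8-fold from 48.3, 46.6 and 39.7 CPM to 77.7, 70.0 and 94.0 CPM, with an adjusted p of 0.0499 by edgeR that passed in only 1 of the 12 fits with a library left out. Soat2, which esterifies cholesterol for storage, was at 36.1, 34.3 and 35.8 CPM against 119, 103 and 65.5 CPM (log2 change 1.43, SE 0.27, adjusted p = 0.0355 by edgeR). None of these 3 was called without wt_normal replicate 2, where the log2 changes were 1.35, 0.89 and 1.43. The sensing and uptake list as a whole had 6 of 10 members above 0 and a median of 0.17.

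The promoters of the called cholesterol synthesis genes are shown because these genes moved together, as RefSeq windows from 250 bases before to 50 bases after the gene start on build GRCm38.p6, 5′ to 3′ on the gene's strand. Capitals mark the CCAAT box, also in its reverse form ATTGG, and the GC box GGGCGG.
Msmo1 promoter (chr8:64733529-64733828, minus strand): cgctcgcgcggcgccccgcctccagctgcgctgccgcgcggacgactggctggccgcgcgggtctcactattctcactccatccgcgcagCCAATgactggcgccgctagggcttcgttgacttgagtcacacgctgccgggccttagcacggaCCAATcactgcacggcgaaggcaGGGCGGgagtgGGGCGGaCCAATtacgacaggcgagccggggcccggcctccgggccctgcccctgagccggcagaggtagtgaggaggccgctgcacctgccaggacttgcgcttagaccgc
Cyp51 promoter (chr5:4104648-4104947, minus strand): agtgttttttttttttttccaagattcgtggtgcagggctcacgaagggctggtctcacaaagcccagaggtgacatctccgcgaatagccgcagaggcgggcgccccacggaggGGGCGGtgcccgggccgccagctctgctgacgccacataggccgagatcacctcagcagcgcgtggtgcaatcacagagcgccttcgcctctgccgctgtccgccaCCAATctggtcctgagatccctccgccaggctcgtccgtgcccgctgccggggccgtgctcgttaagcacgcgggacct
Mvd promoter (chr8:122443373-122443672, minus strand): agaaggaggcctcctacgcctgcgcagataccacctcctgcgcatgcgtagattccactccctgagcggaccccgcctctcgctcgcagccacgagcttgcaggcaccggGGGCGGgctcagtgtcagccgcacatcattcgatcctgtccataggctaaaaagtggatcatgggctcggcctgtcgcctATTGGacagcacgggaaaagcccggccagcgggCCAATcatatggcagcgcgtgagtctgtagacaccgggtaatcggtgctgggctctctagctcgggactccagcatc
A CCAAT box was found on either strand in 14 of the 15 sterol synthesis genes with a window (93.3%), against 42.5% of the 10517 tested genes with one. A GGGCGG box was also found in 14 of the 15, against 65.8%. Among all called rises, CCAAT was found in 25 of 48 windows (52.1%), and among all called falls in 10 of 22 (45.5%). Both motifs were chosen after the data were seen, and their matches may overlap those of other motifs. The 3 patterns that had been planned for the search, on both strands, were others. TCACNCCAC was found in 1 of the 15 sterol windows and in 1.44% of all. TGACNNNGC was found in 4 of the 15 and in 16.7% of all, and GGTCAAAGG in none of the 15 and in 0.352% of all. In the same order, they were found in 1, 7 and 0 of the 48 windows of called rises. Among the 22 windows of called falls the counts were 0, 2 and 0.

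**Figure D3:**
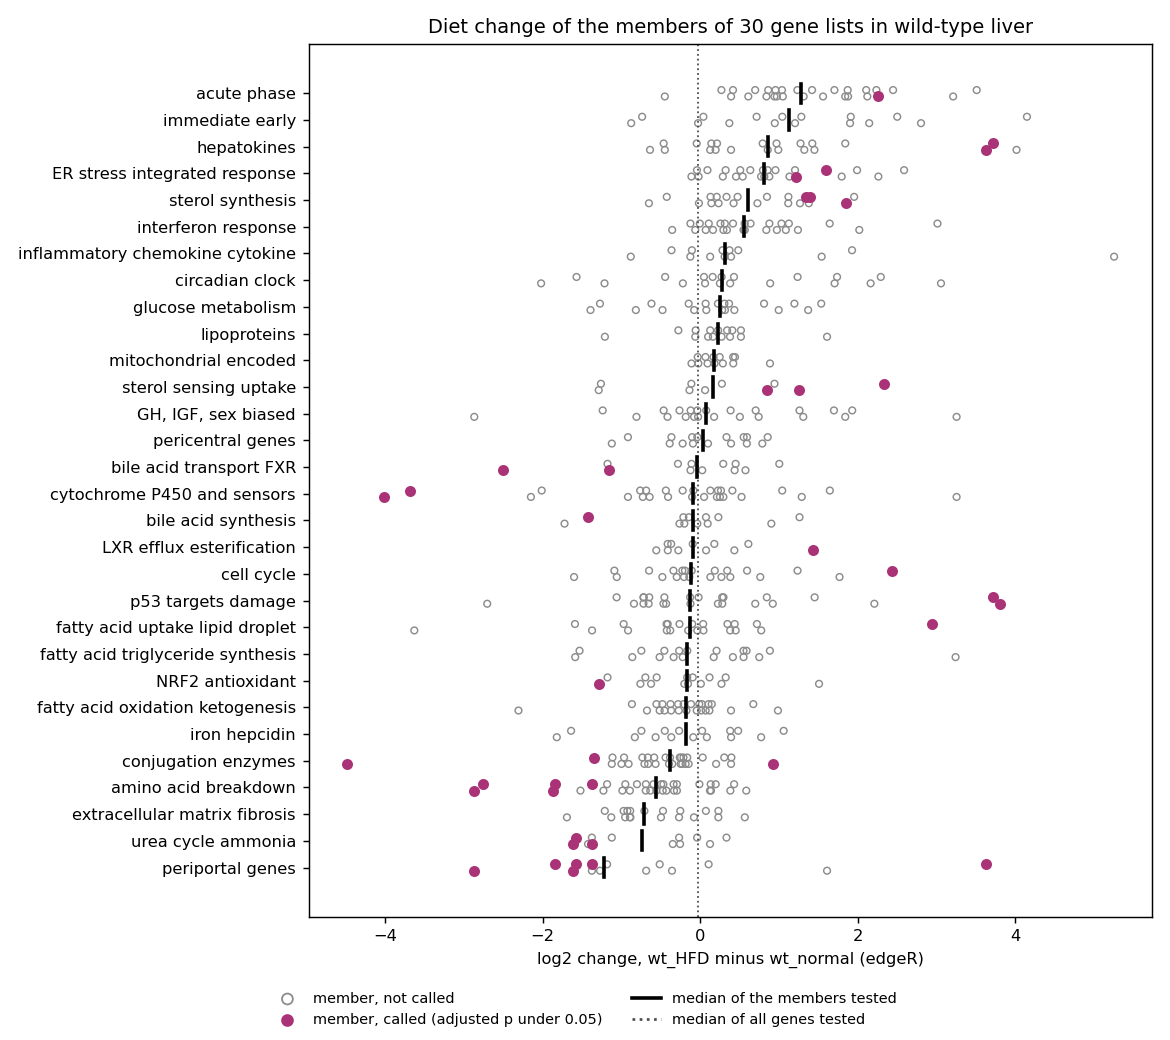
Diet change (log2, wt_HFD minus wt_normal) of the tested members of 30 gene lists, with called members filled, others open, the median of each list as a bar and the median of all genes, -0.03, as a dotted line. The highest medians are those of the acute phase list (1.27) and the immediate early list (1.12), and the lowest that of the periportal list (-1.23).

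Among called genes other than predicted models, the 3 largest falls were in enzymes of drug and steroid clearance. Cyp3a11, the main Cyp3a enzyme of mouse liver, was at 1499, 1274 and 1651 CPM in wt_normal and at 77.8, 162 and 104 CPM in wt_HFD, a 12.9-fold fall (log2 change -3.69, SE 0.31, adjusted p = 0.000221 by edgeR). Its neighbour on chromosome 5, Cyp3a59, was at 17.6, 27.6 and 19.8 CPM against 0.842, 2.58 and 0.623 CPM (log2 change -4.02, SE 0.54, and -4.84 without wt_HFD replicate 2). Their longest transcripts share no stretch of 50 bases. Gsta2, a glutathione transferase, was at 17.1, 20.3 and 19.1 CPM against 0.481, 1.42 and 0.623 CPM, a 22.4-fold fall (log2 change -4.49, SE 0.48, adjusted p = 0.00151 by edgeR). It is uncertain, since 44.8% of the 50-base stretches of its longest transcript are also in Gsta1. All 3 calls remained without wt_normal replicate 2, with log2 changes of -3.76, -3.79 and -4.41.

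The families as a whole gave few calls. The cytochrome P450 list had 2 called of 27 tested, 13 values above 0 and a median of -0.09. The conjugating enzymes had 3 called of 31, 6 values above 0 and a median of -0.38, and 12 of them had every HFD library below every normal-diet library, against 10.7% of all genes. Gstm1 fell from 1035, 612 and 589 CPM to 287, 233 and 355 CPM (log2 change -1.35, SE 0.28, adjusted p = 0.0483 by edgeR), and lost its call without wt_normal replicate 2, at -1.45. The quinone reductase gene Nqo1, from the NRF2 list, fell from 5.85, 7.14 and 5.47 CPM to 2.10, 2.58 and 2.89 CPM (adjusted p = 0.048 by edgeR, and 0.172 without that library).

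Transporters and bile acid enzymes gave 3 further falls. Slco1a4, which takes up organic anions, was at 29.8, 18.2 and 29.6 CPM against 3.19, 3.94 and 6.46 CPM (5.69-fold lower, log2 change -2.51, SE 0.41, adjusted p = 0.024 by edgeR, and 0.0411 without wt_normal replicate 2). Abcc3, which exports conjugates into the blood, was at 190.5, 175 and 197 CPM against 65.2, 86.1 and 100 CPM (log2 change -1.16, SE 0.19, adjusted p = 0.024 by edgeR). Akr1d1, a steroid reductase of bile acid synthesis, was at 40.3, 40.2 and 54.0 CPM against 20.6, 16.3 and 13.3 CPM (log2 change -1.42, SE 0.27, adjusted p = 0.0355 by edgeR). Abcc3 and Akr1d1 lost their call without wt_normal replicate 2 (adjusted p = 0.0592 and 0.0954 by edgeR). The other 11 of 12 bile acid synthesis genes were not called, and the list's median was -0.09.

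Several genes of nitrogen handling fell on HFD. Of the 12 tested genes of the urea cycle and ammonia handling, 3 fell, none rose and 2 had a value above 0, with a median of -0.74. Ass1, which joins citrulline to aspartate, was at 2391, 2874 and 3428 CPM in wt_normal and at 1178, 713 and 1022 CPM in wt_HFD, a 2.98-fold fall (log2 change -1.58, SE 0.27, adjusted p = 0.0264 by edgeR). Arg1, the arginase that releases urea, was at 1225, 1178 and 1803 CPM against 623, 446 and 555 CPM (log2 change -1.37, SE 0.24). Gls2, the liver glutaminase, was at 336, 316 and 346 CPM against 174, 73.6 and 76.9 CPM (log2 change -1.62, SE 0.31). Cps1, the first enzyme of the cycle, was chosen after its values were seen: it lay at 1001, 1343 and 1636 CPM against 382, 425 and 726 CPM and did not pass (adjusted p = 0.0694 by edgeR). The predicted gene Gm5424, chosen after its values were seen, also fell (-1.58, adjusted p = 0.0466 by edgeR, and 0.132 without wt_normal replicate 2), and 76.5% of the 50-base stretches of its longest transcript are in Ass1, so the reads of the pair may not be separate.

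Of 33 tested genes of amino acid breakdown, 5 fell, none rose and 7 had a value above 0, with a median of -0.56. In 17 of them every HFD library lay below every normal-diet library, against 10.7% of all genes. Etnppl, which breaks down phosphoethanolamine, was at 156, 174 and 116 CPM against 33.1, 14.5 and 13.4 CPM (7.32-fold lower, log2 change -2.87, SE 0.39, adjusted p = 0.0103 by edgeR). Acmsd, which draws tryptophan breakdown away from NAD synthesis, was at 31.4, 43.9 and 57.3 CPM against 8.24, 4.90 and 6.46 CPM (6.76-fold lower, log2 change -2.76, SE 0.45, adjusted p = 0.024 by edgeR). Got1, the cytosolic aspartate transaminase, was at 239, 519 and 615 CPM against 116, 84.0 and 177 CPM (log2 change -1.86, SE 0.33). Cth, which makes cysteine, was at 423, 399 and 471 CPM against 185, 111 and 202 CPM (log2 change -1.38, SE 0.23). Hal, which starts histidine breakdown, was at 286, 471 and 523 CPM against 174, 97.6 and 83.8 CPM (log2 change -1.85, SE 0.31). Amdhd1, a later step of the same route and its neighbour on chromosome 10, was chosen after its values were seen: it fell from 149, 167 and 179.9 CPM to 101, 69.1 and 64.7 CPM (log2 change -1.08, SE 0.22, adjusted p = 0.0466 by edgeR, and 0.139 without wt_normal replicate 2).

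Without wt_normal replicate 2 the medians of the urea and amino acid lists were -0.86 and -0.63, and of their 8 called genes Etnppl alone passed (adjusted p = 0.0392 by edgeR). Of these genes, Ass1, Arg1, Gls2, Hal and Etnppl are also on the list of periportal genes. They are the 5 called falls of that list, which thus adds no further fall. It had 5 lower, 1 higher (Serpina12) and 8 not called among 14 tested, and a median of -1.23. Over all genes tested, 0.693% were called. The 16 tested pericentral genes had no call, 8 values above 0 and a median of 0.03, with 4 at an unadjusted p under 0.05 in edgeR, 2 called by DESeq2 and 0 by voom. Over all 14433 genes, 2453 were at an unadjusted p under 0.05 in edgeR, 660 were called by DESeq2 and 92 by voom. In bulk tissue, fewer cells of a type and less RNA per cell cannot be told apart.

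Among called genes, the 2 largest rises were in stress genes. Gadd45a, a growth arrest gene on the p53 target list, was at 2.77, 6.76 and 1.84 CPM in wt_normal and at 50.9, 81.4 and 28.1 CPM in wt_HFD, a 14-fold rise (log2 change 3.80, SE 0.66, adjusted p = 0.0264 by edgeR, and 0.0463 without wt_normal replicate 2). Gdf15, a stress hormone that lowers food intake, was at 10.5, 5.52 and 2.91 CPM against 51.4, 146 and 50.9 CPM (13.2-fold, log2 change 3.72, SE 0.69, adjusted p = 0.0329 by edgeR, and 0.132 without that library, and a log2 change of 3.06 without wt_HFD replicate 2). The other 23 of 25 tested p53 target and damage genes were not called, and the list's median was -0.12. Maff, a small Maf transcription factor, rose from 3.63, 5.33 and 2.76 CPM to 10.8, 17.4 and 33.8 CPM (log2 change 2.40, SE 0.41, adjusted p = 0.0264 by edgeR, and 0.0592 without wt_normal replicate 2). The forkhead factor gene Foxq1 rose from 2.03, 2.62 and 5.52 CPM to 16.8, 15.5 and 29.1 CPM (6.0-fold, log2 change 2.59, SE 0.36, adjusted p = 0.012 by edgeR).

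Several further rises did not share a single pathway list. Slc23a1, the vitamin C transporter, was at 9.91, 8.33 and 10.3 CPM against 25.4, 25.6 and 30.6 CPM, and its groups were tight (2.86-fold, log2 change 1.52, SE 0.15, adjusted p = 0.00117 by edgeR). Fabp5, a fatty acid binding protein, was at 4.25, 7.19 and 3.32 CPM against 24.2, 49.4 and 40.9 CPM (7.73-fold, log2 change 2.95, SE 0.48, adjusted p = 0.024 by edgeR). Nat8f5, of the N-acetyltransferase family, was at 3.75, 1.0 and 4.09 CPM against 28.4, 15 and 17.8 CPM (6.95-fold, log2 change 2.80, SE 0.46). Adgrv1, an adhesion receptor, and Cenpm, a centromere protein, also rose (8.33-fold and 5.43-fold) but stayed low, with at most 8.56 and 1.61 CPM in any wild-type library. They lost their call without wt_normal replicate 2 (adjusted p = 0.0954 and 0.15 by edgeR), and the log2 change of Cenpm went from 2.44 to 3.13 without wt_normal replicate 3. On the other side, the long noncoding RNA Snhg11 fell from 19.5, 16.3 and 17.6 CPM to 3.07, 4.0 and 2.89 CPM (log2 change -2.42, SE 0.40) and Prickle1, of planar cell polarity signalling, from 4.74, 6.57 and 4.65 CPM to 1.44, 1.42 and 1.47 CPM (log2 change -1.88, SE 0.29). Neither was called without wt_normal replicate 2 (adjusted p = 0.0592 and 0.0741 by edgeR). Gm44117, a predicted gene, fell from 5.85, 5.33 and 5.47 CPM to 0.481, 0.452 and 0.453 CPM (log2 change -3.57, SE 0.46, adjusted p = 0.00919 by edgeR).

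Called rises of the serpin family, mostly secreted protease inhibitors, lay together on chromosome 12. Serpina12, which encodes the serpin vaspin, had the smallest p of all genes: it was at 25.7, 14.5 and 13.2 CPM in wt_normal and at 213, 264 and 183 CPM in wt_HFD (12.4-fold, log2 change 3.63, SE 0.27, adjusted p = 0.000127 by edgeR, and 0.000708 without wt_normal replicate 2). Serpina4-ps1, annotated as a pseudogene by its name, was at 63.8, 21.1 and 46.5 CPM against 195, 648 and 561 CPM (10.7-fold, log2 change 3.42, SE 0.69, adjusted p = 0.0466 by edgeR). The cluster was examined after its values were seen. Between positions 103614786 and 104414329 (GENCODE annotation of build GRCm38), 18 Serpina genes were tested. All 18 had a log2 change above 0, or 17 under upper quartile scaling and by voom, against 47.2% of all genes. Over all genes tested, 0.693% were called. Of the 18, 4 were called: Serpina12, Serpina4-ps1, Serpina10 (161, 122 and 119 CPM against 523, 474 and 595 CPM) and Serpina11 (96.7, 77.7 and 88.7 CPM against 299, 307 and 190.2 CPM). Without wt_normal replicate 2 all 18 stayed above 0 and Serpina12 alone was called. Without wt_HFD replicate 2, 16 were above 0, with the low-count Serpina3c and Serpina3h below it (-0.23 and -0.78), and in p53 ko livers 15 were. Serpina1d, an abundant member, was at 2074, 2116 and 2076 CPM against 1993, 2238 and 2173 CPM, with overlap between the diets (log2 change 0.03, SE 0.18). Reads of the near-identical Serpina1 and Serpina3 copies cannot be told apart with certainty in these counts.

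**Figure D4:**
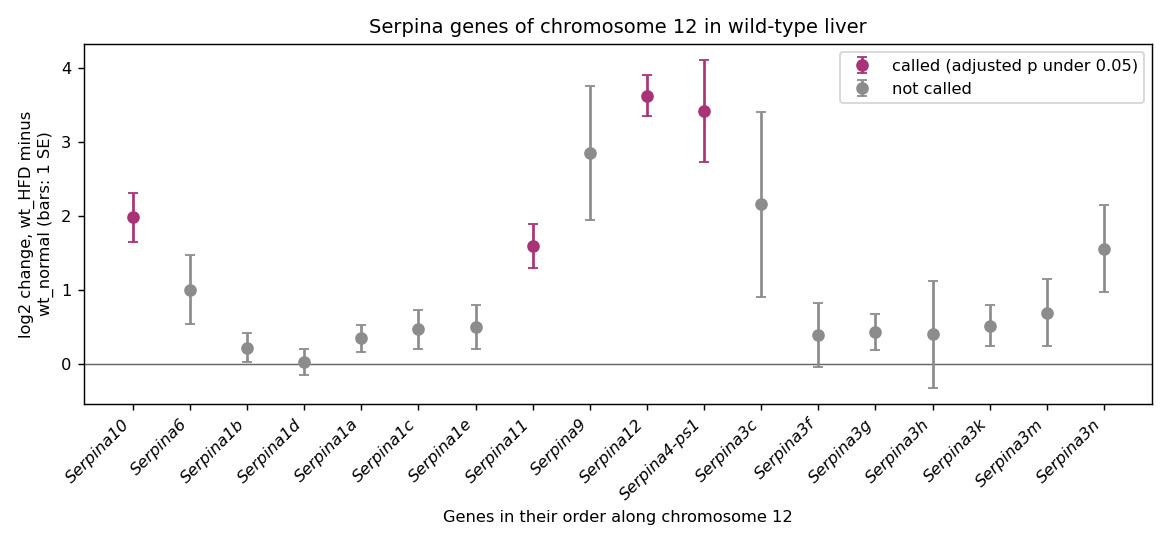
Diet change (log2, wt_HFD minus wt_normal, bars 1 SE) of the 18 tested Serpina genes of chromosome 12 in their order along the chromosome. The 4 called genes lie between 1.60 (Serpina11) and 3.63 (Serpina12), and Serpina1d lies nearest to 0, at 0.03.

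Genes listed for endoplasmic reticulum stress and the integrated stress response were mostly higher, with 21 of 24 tested above 0. Their median was 0.81 (0.66 without wt_normal replicate 2), but 2 were called. In 12 of the 24 every HFD library lay above every normal-diet library, against 11.2% of all genes. Creld2, a secreted folding factor, was at 53.7, 27.5 and 38 CPM against 125, 107 and 127 CPM (3.02-fold, log2 change 1.59, SE 0.22, adjusted p = 0.0103 by edgeR, and 0.0284 without wt_normal replicate 2). Manf, which is secreted under folding stress, was at 96.5, 51.9 and 62.3 CPM against 165, 125 and 201 CPM (adjusted p = 0.0486 by edgeR, and 0.166 without that library). The following were chosen after their values were seen. Derl3, which helps to export misfolded proteins, was at 6.83, 3.05 and 8.68 CPM against 27.2, 23.2 and 27.7 CPM (log2 change 2.08, SE 0.36, adjusted p = 0.0264 by edgeR, and 0.0592 without wt_normal replicate 2). Hspa5, the main chaperone of that compartment, was at 502, 272 and 326 CPM against 649, 538 and 947 CPM and did not pass (log2 change 0.96, adjusted p = 0.129 by edgeR).

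The acute phase list had 27 of 28 members above 0 and a median of 1.27 (1.24 without wt_normal replicate 2), and 20 of them had every HFD library above every normal-diet library, against 11.2% of all genes. Yet 1 was called, Saa4, a serum amyloid gene, at 294, 189 and 223 CPM against 1261, 1184 and 945 CPM (4.8-fold, log2 change 2.26, SE 0.36, adjusted p = 0.024 by edgeR, and 0.0917 without that library). Of the 28, 15 were at an unadjusted p under 0.05 by edgeR and DESeq2 called 8, against 2453 and 660 of all 14433 genes. Members not called were chosen after their values were seen. Hp, haptoglobin, was at 9993, 9740 and 10880 CPM against 36578, 35045 and 28187 CPM (log2 change 1.71, SE 0.42, adjusted p = 0.0868 by edgeR). Saa1 was uneven already on the normal diet, at 691, 3735 and 6159 CPM against 12324, 13606 and 12994 CPM (log2 change 1.88, SE 1.45). Summed neutrophil markers were at 4.19, 3.76 and 2.91 CPM against 6.01, 16.1 and 18.4 CPM, and summed Kupffer cell and macrophage markers overlapped between the diets, at 467, 635 and 688 CPM against 504, 557 and 651 CPM. The part of these cells in the acute phase values was not tested.

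The interferon list had 22 of 26 members above 0 and a median of 0.56 with none called, and the median was 0.27 without wt_HFD replicate 3. Mx2 (log2 change 1.13, adjusted p = 0.0618 by edgeR) and Ifit1, at 8.25, 1.86 and 5.21 CPM against 25.9, 18.9 and 16.9 CPM (2.02, adjusted p = 0.0864 by edgeR), had its smallest p-values. The immediate early genes, which respond within minutes to growth signals and handling, had a median of 1.12 and no call, and the median was 0.18 without wt_HFD replicate 3. That library held 404 CPM of Junb and 280.4 CPM of Ier2, against 24.3 to 109.8 CPM and 37.0 to 87.8 CPM in the other wild-type libraries. It was also highest for the neutrophil attractant Cxcl1, at 158 CPM beside 45.3 and 19.0 CPM in the other wt_HFD libraries and 1.19 to 3.26 CPM in wt_normal (log2 change 5.26, adjusted p = 0.0626 by edgeR, and a log2 change of 4.06 without that library).

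Genes of fat handling gave 1 call in 4 lists. No gene was called among 19 of fatty acid and triglyceride synthesis (9 above 0, median -0.16), 25 of fatty acid oxidation (9 above 0, or 7 to 10 by scaling and 5 without wt_normal replicate 2, median -0.18) and 15 of lipoproteins (11 above 0, median 0.23), and 1 of 22 of fatty acid uptake and lipid droplets, Fabp5. Thrsp, a lipogenic gene, was spread widely, at 5.35, 9.47 and 5.72 CPM against 26.5, 157 and 11.5 CPM (log2 change 3.24, adjusted p = 0.159 by edgeR, and a log2 change of 1.5 without wt_HFD replicate 2). Pdk4, which holds back glucose oxidation in fasting, stood at 197 CPM in wt_normal replicate 2 beside 10.2 and 14.3 CPM in the others and 2.16, 34.8 and 8.05 CPM in wt_HFD. Its log2 change was -2.31 with that library and 0.30 without it. Acacb, an acetyl-CoA carboxylase also made in muscle, was at 95.2 CPM there beside 12.4 and 46.9 CPM, and its log2 change went from -1.59 to -0.78. Apoa4, an apolipoprotein, was at 105, 87.7 and 328 CPM against 584, 601 and 405 CPM and did not pass (log2 change 1.61, adjusted p = 0.144 by edgeR, and a log2 change of 2.46 without wt_normal replicate 3).

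The glucose list had no call among 20 genes and a median of 0.25. Pck1, the gatekeeper of gluconeogenesis, was at 3321, 2794 and 4261 CPM against 1715, 947 and 1633 CPM (log2 change -1.27, adjusted p = 0.079 by edgeR), and the glucose transporter gene Slc2a2 at 51.6, 27.9 and 38.5 CPM against 91.9, 78.3 and 65.5 CPM (1.0, adjusted p = 0.0772 by edgeR). Neither pair of groups overlapped. Among 19 clock genes none was called, and Bhlhe40 had the smallest p, at 8.86, 19.6 and 10.3 CPM against 27.4, 69.6 and 29.9 CPM. Among 23 genes of growth hormone signalling and sex bias none was called. Cux2, a factor with female-biased expression in mouse liver, had a log2 change of -2.87, with 11.4 CPM in wt_normal replicate 2 beside 1.23 and 1.99 CPM, and of -1.26 without that library. The chemokine and cytokine list had no call among 13 genes and a median of 0.31, which was 0.03 without wt_HFD replicate 3. The 16 genes of iron handling (median -0.18) and the 13 mitochondrially encoded genes (0.18) had no call either. Of 21 hepatokines, hormones secreted by the liver, 17 were above 0 and Gdf15 and Serpina12 were called, with a median of 0.86, or 0.62 without wt_normal replicate 2. Of 22 cell cycle genes Cenpm alone was called (median -0.12), of 11 genes of cholesterol efflux and esterification Soat2 alone (-0.09), and of 15 NRF2 targets Nqo1 alone (-0.17). In all, 13 of the 30 lists had no called member. Of the 240 different genes tested in them, 67 were at an unadjusted p under 0.05 by edgeR, DESeq2 called 25 and voom 0. Over all 14433 genes these counts were 2453, 660 and 92.

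Extracellular matrix genes had a median of -0.71 with 4 of 19 above 0 and none called. The median was -0.37 without wt_normal replicate 2, the library with the highest stellate cell and fibroblast markers. Dcn, decorin, was at 78.0, 128 and 83.1 CPM against 36.5, 58.9 and 61.2 CPM (log2 change -0.89, adjusted p = 0.182 by edgeR). The 12 endothelial markers all had a negative log2 change, with a summed level of 523, 583 and 599 CPM against 360, 464 and 490.5 CPM. In 7 of the 12 every wt_HFD library lay below every wt_normal library, against 10.7% of all genes. None of the 12 was called, and without wt_normal replicate 2 the value was above 0 for 2 of them. Summed erythroid markers were lower in every wt_HFD library, at 208, 278 and 174 CPM against 417, 878 and 411 CPM in wt_normal. In 4 of the 6 tested every wt_HFD library lay below every wt_normal library, against 10.7% of all genes, though none was called. Summed markers of cholangiocytes, recruited monocytes, T and NK cells and exocrine pancreas overlapped between the diets. Those of cholangiocytes lay at 34.2 to 56.2 CPM in wt_normal and 29.9 to 130.9 CPM in wt_HFD, those of recruited monocytes at 20.8 to 41.8 CPM and 15.5 to 52.9 CPM, those of T and NK cells at 4.55 to 10.9 CPM and 4.51 to 5.81 CPM, and those of exocrine pancreas at 17.5 to 24.2 CPM and 23.7 to 45.8 CPM.

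The p53 ko livers allow the wild-type changes to be read beside those of other libraries on the same diets. No gene was called between ko_HFD and ko_normal (0% of 14433), with 812 at an unadjusted p under 0.05 by edgeR, 37 called by DESeq2 and 0 by voom. Some ko replicates were less alike than the wild-type ones. The chi-square per degree of freedom between replicate counts was 39.5 to 190 in ko_normal and 58.9 to 199 in ko_HFD. Within the wild-type groups it was 54.7 to 93. Of the 62 rises, 55 had a positive log2 change in ko livers too, and in 23 every ko_HFD library lay above every ko_normal library, against 5.45% of all genes. Of the 38 falls, 34 were negative in ko livers, and in 22 the ko libraries were separated in the same direction, against 5.96% of all genes. The median ko change was 0.36 for the rises and -0.63 for the falls. Every one of the 100 changes was smaller in size in ko livers, but the genes had been chosen by their wild-type values, so this count is a description. The difference between the diet changes was itself called for no gene (0% of 14433), with 725 at an unadjusted p under 0.05 by edgeR, 19 called by DESeq2 and 1 by voom.

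Fitted changes in ko livers lay near those of wild type for some genes and further from them for others, which was not tested between genes. Cyp51 and Mvd had log2 changes of 1.30 and 1.25 in ko against 1.35 and 1.39 in wild type, differences of -0.04 (SE 0.28) and -0.14 (SE 0.34), and the median of the sterol synthesis list was 0.53 in ko livers, with 17 of 20 above 0. Serpina4-ps1 had 3.28 against 3.42, with a wide error of the difference (SE 0.89). Cyp3a11 fell from 1521, 1181 and 1227 CPM to 465, 256 and 366 CPM in ko livers, a log2 change of -1.85 against -3.69. Serpina12 was already at 108, 121 and 89.8 CPM in ko_normal and reached 199.6, 170.2 and 221 CPM in ko_HFD, so that its log2 change was 0.89. The difference, -2.74 (SE 0.36), had the smallest p of all genes and did not pass (adjusted p = 0.0587 by edgeR). Foxq1 lay at 19.5, 20.4 and 15.1 CPM in ko_normal and at 13, 10.4 and 15.4 CPM in ko_HFD, a difference of -3.09 (SE 0.49, adjusted p = 0.217 by edgeR). The median of the urea list was -0.34 and that of the endoplasmic reticulum stress list 0.05 in ko livers, against -0.74 and 0.81.

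**Figure D5:**
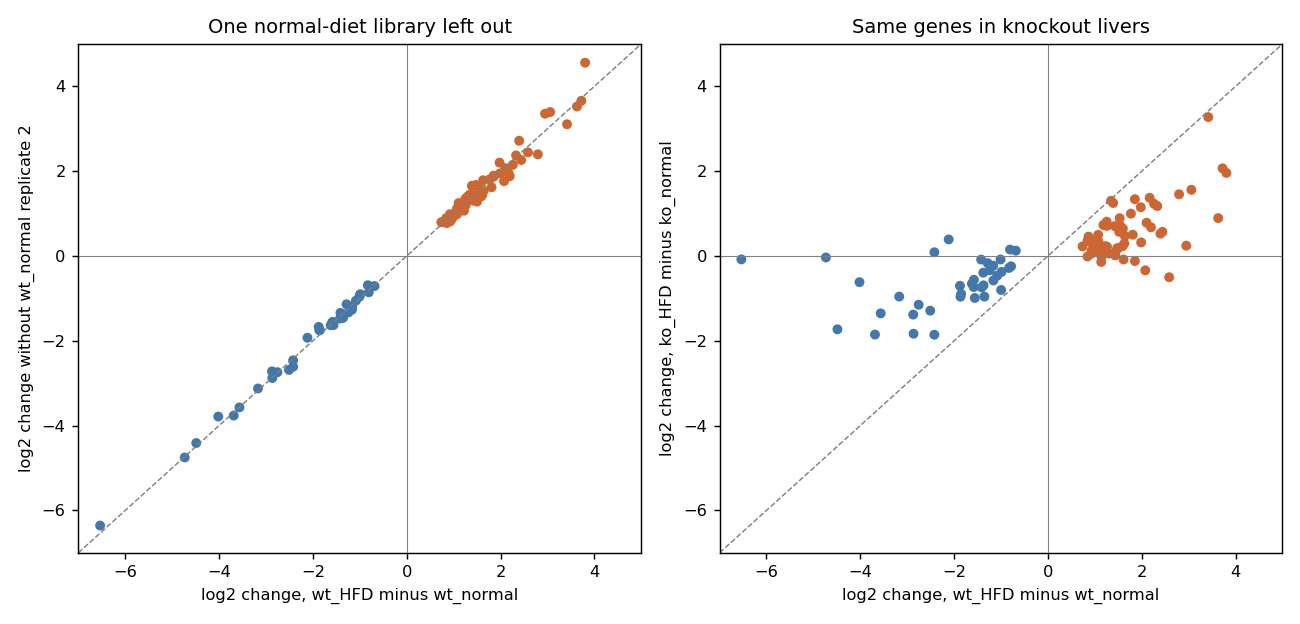
The log2 diet change of the 100 called genes in wild-type liver (horizontal axis) against the same without wt_normal replicate 2 (left) and against the log2 diet change in p53 ko liver (right), each point 1 gene, rises in orange and falls in blue, with a dashed line of equal values. On the left all 100 points keep their sign, which groups without overlap nearly ensure, and lie along the line, with Gadd45a highest at 4.56. The lowest point is the predicted gene Gm17022, which had no count in wt_HFD, so its fitted value is no bound. On the right the points lie closer to 0, with medians of 0.36 for the rises and -0.63 for the falls.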

How the data were processed

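Per the labels, liver RNA of 12 mouse libraries was sequenced in 4 groups of 3, and groups and replicate numbers were taken from each library's own labels. The deposited values are whole-number read counts per gene. The submitters' processing notes list CASAVA 1.8 and Bowtie 0.12.2 as the authors' tools and mm8 and mm9 as builds, with no role for either build. How reads were counted, on which annotation and with which strand setting is not given in the sources used here, so reads of overlapping genes and near-identical copies cannot be told apart. Of 52636 identifiers, 52403 were matched to a symbol, and positions come from GENCODE M21 (GRCm38), not from the authors.

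Counts were used as deposited. A filter on low counts (edgeR's filterByExpr) left 14433 genes, library totals were scaled by TMM, and 1 model of the 4 groups was fitted to all 12 libraries in edgeR 4.0.16, with 8 residual and 4.66 prior degrees of freedom. The two-sided quasi-likelihood F-test was adjusted by Benjamini-Hochberg over all genes, with calls at an adjusted p under 0.05. CPM are read counts normalised to TMM-scaled library totals, and SE is the standard error of the fitted log2 change, with 3 libraries a group. On simulated counts of this comparison, the test recovered 19.2% of 2-fold and 64% of 4-fold changes over 14152 genes. Replicate pairs differed by a chi-square per degree of freedom of 39.5 to 199, so none was a repeat within counting error.

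The comparison and the 30 pathway and 13 marker lists were chosen with earlier results of these data known, and lists are described by counts and medians, without a set test. Genes named by rule are Trp53, among called genes the 12 largest rises and falls without overlap (predicted genes left out), up to 6 called members of each list, the 2 smallest p of lists without a call, and genes called without any 1 library or only without wt_normal replicate 2. Sqle is added as the gene of the series' title, and the text marks other genes described by their values as chosen after these were seen. A few genes that the rule names are not reported here. Sequences were read from RefSeq windows. Alternatives were other libraries in the fit, a replicate block, other scalings and filters, DESeq2 1.42.0, voom in limma 3.58.1, and removal of muscle and B cell markers.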

Additional observations from a re-analysis of the deposited data

How the results depend on the processing

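All 100 changes kept their sign in each of the 22 alternatives that tested them, which groups without overlap nearly ensure. The number of calls depended on the libraries and the test. Leaving out 1 library gave 9 to 131 calls (4 to 90 higher, 5 to 68 lower) and 0 to 1 called difference between the genotypes. The 6 wild-type libraries alone gave 34 calls (25 higher, 9 lower), and 17 (10 and 7) without wt_normal replicate 2. No filter on low counts gave 696 calls (314 higher, 382 lower) with 13 called differences, and DESeq2 660 (411 and 249) with 19. Voom gave 92 calls with 1 called difference. Of the 100 genes, 99 were also called without the filter, 97 by DESeq2 and 88 by voom. Scaling by DESeq2 size factors gave 111 calls, upper quartile scaling 86, and removal of muscle and B cell markers 103.

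Replicate numbers are shared between groups, but deviations of same-numbered libraries correlated at -0.209 to 0.332 and at 0.138, 0.176 and 0.0169 between the wild-type groups, so they were not taken as pairs. With a replicate block, 91 genes were called (52 higher, 39 lower), 68 of them among the 100.

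Of 1540 values of the 70 named genes under the alternatives, 1229 kept their direction and side of the threshold, 261 no longer passed, 46 newly passed and 4 changed sign. Those 4 were Trp53 without wt_HFD replicate 1 (0.19) or 2 (0.13), and Pdk4 without wt_normal replicate 2 in both fits (0.30). Leaving out 1 library gave -0.69 to 0.19 for Trp53 and -3.81 to 0.30 for Pdk4. With 3 libraries a group, most 2-fold changes are below what this test calls.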
